A study of Mus musculus with 2 samples.

Results

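The claudin genes of the tight junction, 10 in number, were followed through the squamous and columnar lineages that meet at the gastroesophageal squamocolumnar junction (GE-SCJ) of the mouse. The members were chosen by name, as *Cldn1*, *Cldn3*, *Cldn4*, *Cldn5*, *Cldn6*, *Cldn7*, *Cldn10*, *Cldn11*, *Cldn18* and *Cldn23*, and all 10 were found among the 19550 genes counted. Together they held 76095 of the 107865155 unique molecular identifiers (UMIs, each of which stands for a captured transcript). The other 33 tight junction genes that were found, of 37 listed, are compared with them.

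Single-cell RNA sequencing (10x Genomics 3′ chemistry) was run on wild type C57BL/6 mice at embryonic day 15 (E15), embryonic day 19 (E19), pup day 2 and adult 8 weeks. Esophagus, GE-SCJ and stomach were dissociated separately, and a lipid-anchored oligonucleotide tag per region and stage marked the cells before pooling. The labels count 6 mice at E15, 2 at E19, 2 at the pup stage and 3 at the adult stage, pooled within a tag, and the study's methods give another number of mice. Tagged cells were present for 11 of the 12 combinations, without the adult stomach.

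Each region and stage is therefore 1 pooled sample without replicates. No difference was tested, no p-value is given, and every interval is a 95% interval that covers counting error only, not the spread between mice. Intervals of levels and ratios treat the UMIs of a cell as independent. Where intervals are said not to overlap, the share of all genes with intervals apart is not given. The 7808 cells had 519 to 79817 UMIs each (median 10424.5), no barcode occurred more than once, and groups of a region and stage held 143 to 1403 cells. Of the 9 deposited class labels, the columnar label holds 1540 cells, and 2 squamous labels hold 690 and 40. A level is the sum of a gene's UMIs in a set of cells for every 1000000 UMIs of any gene in that set (CPM). The label Squamous Epithelial-2 carried *Krt13* in every cell (8826 CPM) and *Krt15* in 87.5% of cells (1439 CPM). *Krt5* was at 12.6 CPM and *Krt14* at 5.40 CPM there, and no UMI of *Trp63* or *Col17a1* was found. Of the mesothelial marker list, this label had *Upk1b* at 2045 CPM, *Msln* at 881 CPM, *Upk3b* at 5.40 CPM and no UMI of *Wt1*. Both labels are joined as squamous cells unless stated. The 139 cells of Stromal-2 carry mesothelial markers, and endothelial cells carried *Pecam1* at 789 CPM and *Cdh5* at 960 CPM. Labels outside epithelium are here those not named squamous or columnar. By its name Stromal-2 is counted among them, although it also carried the epithelial keratin *Krt8* at 247 CPM.

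Claudins are membrane proteins that join neighbouring cells at the tight junction, the seal near the apical surface of epithelia and endothelia. Each tissue uses its own mix: some claudins tighten the paracellular space, and others form pores selective for ions. Stratified squamous epithelium carries most of its barrier in the upper layers, whereas in the stomach a single columnar layer faces acid.

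Promoter sequences, 250 bases before to 50 after a start site, are shown for 3 claudins that differed by lineage (*Cldn18*, *Cldn4*) or stage (*Cldn6*). They come from RefSeq on GRCm38.p6, which matched 9 of the members with 12 promoters, *Cldn23* being the exception. Capitals mark matches on either strand to TATAAA, known as the TATA box (in 13.6% of all 32851 promoters of the table), GGGCGG, the GC box (35.7%), AGATAA, a motif of GATA factors (11.2%), TGTTTAC, a motif of forkhead factors (3.65%), or TGACTCA, a motif of AP-1 (5.20%). A match is a run of letters and not a measured binding site. *Cldn18*, which marked columnar cells, has 2 RefSeq starts on the minus strand, at chr9:99717218-99717517 (2 GATA matches) and chr9:99710014-99710313 (0 matches). The gene has separate first exons, used in lung and in stomach. Its UMIs were counted at transcript 3′ ends, so they do not tell which start was used.
Cldn18 start 1: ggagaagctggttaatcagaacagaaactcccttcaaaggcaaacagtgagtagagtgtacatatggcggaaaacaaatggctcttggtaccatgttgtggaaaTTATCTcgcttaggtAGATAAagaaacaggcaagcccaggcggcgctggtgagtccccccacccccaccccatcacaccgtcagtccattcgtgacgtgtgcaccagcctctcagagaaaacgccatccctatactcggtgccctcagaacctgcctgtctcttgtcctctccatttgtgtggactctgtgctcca
Cldn18 start 2: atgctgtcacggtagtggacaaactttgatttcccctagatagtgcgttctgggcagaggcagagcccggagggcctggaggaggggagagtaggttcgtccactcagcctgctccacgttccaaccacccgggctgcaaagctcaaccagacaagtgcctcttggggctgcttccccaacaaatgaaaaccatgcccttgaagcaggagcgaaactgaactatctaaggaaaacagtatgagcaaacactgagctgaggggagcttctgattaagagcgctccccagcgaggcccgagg
*Cldn6*, the member with the lowest ratio of pup to E15 in columnar cells, starts on the plus strand within chr17:23679115-23679414, with 2 GC boxes. *Cldn4*, higher in squamous than in columnar cells of the GE-SCJ at each stage, starts on the minus strand within chr5:134946885-134947184, with 4 matches, of AP-1 and GC boxes.
Cldn6: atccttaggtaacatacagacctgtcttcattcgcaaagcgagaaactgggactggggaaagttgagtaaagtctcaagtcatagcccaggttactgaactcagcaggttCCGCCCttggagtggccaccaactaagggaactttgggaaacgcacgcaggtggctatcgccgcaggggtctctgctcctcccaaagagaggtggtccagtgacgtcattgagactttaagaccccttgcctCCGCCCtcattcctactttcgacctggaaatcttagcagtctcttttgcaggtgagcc
Cldn4: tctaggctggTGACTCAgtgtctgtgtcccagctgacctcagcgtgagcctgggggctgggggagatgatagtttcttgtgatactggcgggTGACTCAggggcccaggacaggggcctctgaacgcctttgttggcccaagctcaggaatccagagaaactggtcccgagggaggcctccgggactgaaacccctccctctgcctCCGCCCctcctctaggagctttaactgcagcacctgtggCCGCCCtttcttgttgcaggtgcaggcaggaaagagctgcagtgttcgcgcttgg
*Cldn4* (chromosome 5, from 134945119 to 134946934) lies 39279 bases from *Cldn3* (134986214 to 134987472). *Cldn18* spans 99689461 to 99717267 of chromosome 9, *Cldn6* 23679249 to 23682446 of chromosome 17, and *Cldn7* 69964779 to 69967885 of chromosome 11 (GENCODE M21, GRCm38).

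Across the class labels, the members fell into an endothelial gene, a columnar gene, genes of both epithelial lineages, genes of squamous cells with little columnar signal, and genes with signal outside epithelium. *Cldn10* and *Cldn1* had squamous signal and also signal outside epithelium. CPM are compared between groups for 1 gene at a time, since the counts are not scaled by transcript length.

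*Cldn18*, the main barrier claudin of the gastric surface, was at 1037 CPM (1027 to 1047) in columnar cells, of which 98.0% had a UMI. Squamous cells of the first label had 37.6 CPM (34.0 to 41.6), and 30.1% of them had a UMI. Immune cells, which lack epithelial junctions, had 88.5 CPM (79.2 to 98.5) and 30.2% of cells, at a median depth of 8266.5 UMIs against 12028.5 in the squamous cells. Immune cells were the highest label outside epithelium, Stromal-2 the lowest at 26.8 CPM (18.8 to 37.1), and stromal cells had 37.9 CPM. The squamous level of *Cldn18* lay within this range and is not read as expression, and the source of the UMIs was not tested. With each cell thinned to 5000 UMIs, which left out 1135 cells in all, the shares in columnar, squamous and immune cells were 94.6%, 13.7% and 20.6%.

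*Cldn7*, a claudin that binds Epcam and also lies along the lateral membrane, was found in both lineages, at 343 CPM in columnar cells, 203 CPM in squamous cells of the first label and 382 CPM in those of the second. Immune cells had 36.1 CPM (30.3 to 42.7). For each UMI of *Cldn7* there were 3.03 of *Cldn18* in columnar cells and 2.45 to 4.50 in the labels outside epithelium (2.45 in immune, 2.50 in endothelial, 3.23 in neural, 4.03 in stromal, 4.08 in smooth muscle and 4.50 in Stromal-2 cells). In squamous cells there were 0.185 in the first label and 0.0802 in the second. These ratios depend on the mix of stages. In columnar cells of the GE-SCJ and stomach they ran from 1.20 (GE-SCJ, E15) to 11.8 (stomach, pup). In squamous cells of the esophagus and GE-SCJ they ran from 0.0546 (GE-SCJ, E19) to 2.42 (esophagus, adult). What sets the ratio was not tested.

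*Cldn3* and *Cldn4*, sealing claudins of simple and stratified epithelia, were also shared. *Cldn3* was at 29.8 CPM in columnar cells, 57.2 CPM in squamous cells of the first label and 1.59 CPM in immune cells. *Cldn4* was at 28.5 CPM, 99.5 CPM and 4.78 CPM in these classes. *Cldn6*, known from embryonic epithelia, had 25.8 CPM in columnar and 10.7 CPM in squamous cells of the first label, with 0.797 CPM in immune cells. In the 40 cells of the second squamous label no *Cldn6* UMI was found, which allows a share of up to 8.81%.

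*Cldn10*, a pore-forming claudin with splice forms for cations or anions, had 102 CPM (95.8 to 108) in the first squamous label, against 3.63 CPM in columnar cells. Outside epithelium it was found in Stromal-2, at 70.0 CPM (56.6 to 85.7) and in 46 of 139 cells (33.1%). *Cldn1*, which seals the epidermis, was at 178 CPM (145 to 217) in Squamous Epithelial-2, 15.6 CPM in the first label, 16.6 CPM in stromal cells and 0.416 CPM in columnar cells. Stromal cells were thus level with squamous cells of the first label within counting error. *Cldn23* was at 829 CPM (755 to 908) in Squamous Epithelial-2, where 36 of 40 cells had a UMI, against 21.5 CPM in the first squamous label and 23.2 CPM in columnar cells.

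*Cldn5*, which seals the blood-brain barrier, was an endothelial gene here, at 373 CPM (346 to 403) and in 117 of 157 endothelial cells (74.5%). The other labels were at 0 to 0.745 CPM. *Cldn11*, known from myelin and the testis barrier, was low, with 338 UMIs in the whole pool. It reached 9.06 CPM (8.05 to 10.2) in stromal and 5.07 CPM (3.05 to 7.92) in neural cells, against 0.531 CPM in immune cells.

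**Figure D1:**
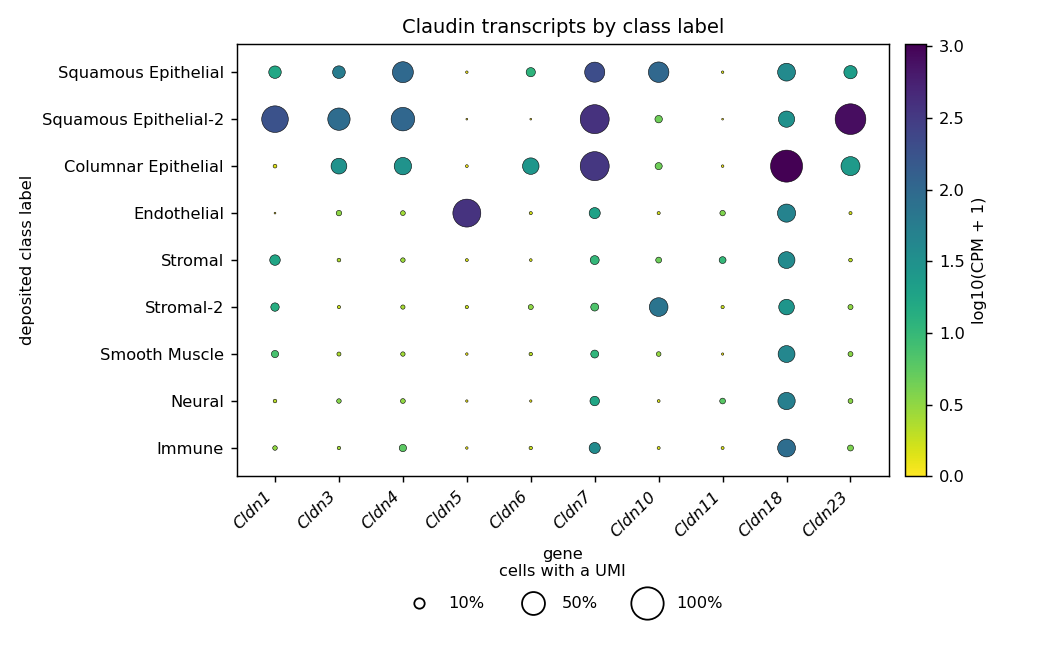
Level and spread of the 10 claudins (x axis) in the 9 deposited class labels (y axis). Colour gives log10(CPM + 1) and dot area the percent of cells with at least 1 UMI; *Cldn5* stands out in endothelial cells (74.5% of cells), *Cldn23* in the second squamous label and *Cldn18* in columnar cells (98.0%), with pale *Cldn18* dots of 23.0% to 31.2% of cells in every other label.

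In columnar cells of the stomach, *Cldn18* differed by less than 2-fold between E15 and the pup, while 5 other claudins were lower in the pup. *Cldn18* had 1029.7 CPM (998 to 1062) in 140 E15 cells, 1226 CPM in 366 E19 cells and 902 CPM (885 to 920) in 351 pup cells. *Cldn7* had 786 CPM, 501 CPM and 76.3 CPM (71.3 to 81.5) in the same order. *Cldn6* was at 136 CPM, 14.0 CPM and 1.66 CPM (1.00 to 2.60). The intervals of *Cldn6* and *Cldn7* do not overlap between any of the 3 stages, and the pup level of *Cldn6* was near the 1.65 CPM of pup immune cells. That immune level is a weak reference, since immune cells of all stages together held 3 *Cldn6* UMIs. *Cldn3* went from 137 CPM over 27.9 CPM to 16.6 CPM, *Cldn4* from 66.8 CPM over 25.0 CPM to 13.3 CPM, and *Cldn23* from 35.7 CPM over 23.8 CPM to 11.5 CPM. Each was lowest in the pup, without overlap of the E15 and pup intervals. In the pup, 43 of the 152 *Cldn4* UMIs of stomach columnar cells lay in 1 cell.

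A difference of at least 2-fold was called for a gene whose UMIs in the compared groups came to 50 or more, with log2 ratios from sums with 1 UMI added. For pup over E15 in stomach columnar cells, 0 of the 6 members with that minimum were higher and 5 were lower. Of the 10789 genes compared, 9.32% were at least 2-fold higher and 20.9% lower. The log2 ratio was -6.28 for *Cldn6*, -3.36 for *Cldn7*, -3.03 for *Cldn3*, -2.32 for *Cldn4*, -1.64 for *Cldn23* and -0.19 for *Cldn18*. The median over all genes was -0.38, and over the members -2.68.

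In GE-SCJ columnar cells *Cldn6* and *Cldn7* were likewise highest at E15 and lowest in the pup. *Cldn18* had 881 CPM in 53 E15 cells, 1127 CPM in 274 E19 cells, 1001 CPM in 291 pup cells and 1049 CPM (961 to 1143) in 19 adult cells. *Cldn7* was at 733 CPM, 556 CPM, 87.6 CPM and 276 CPM (232 to 327). *Cldn6* was at 162 CPM (141 to 185), 26.1 CPM, 1.59 CPM and 18.2 CPM (8.30 to 34.5). The adult levels of *Cldn6* and *Cldn7* lay above the pup levels without overlap of intervals, but 8 of the 19 adult cells had neighbours in expression space mostly from the prenatal stages. In those 8 cells *Cldn6* was at 31.6 CPM and *Cldn7* at 392 CPM. In the other 11 cells they were at 4.12 CPM (0.104 to 22.9) and 156 CPM (111 to 215), and the *Cldn6* interval overlapped that of the pup. Neighbours were found from the same counts, so this split is not independent of the claudin levels and cannot decide which cells are adult. The part of the tag assignment in these levels was not tested.

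*Cldn3* was at 65.0 CPM, 17.3 CPM, 7.57 CPM and 12.1 CPM in GE-SCJ columnar cells from E15 to the adult, *Cldn4* at 71.0 CPM, 54.2 CPM, 5.25 CPM and 18.2 CPM, and *Cldn23* at 52.1 CPM, 40.2 CPM, 11.2 CPM and 48.4 CPM. The pup levels of *Cldn3* and *Cldn4* were no higher than those of pup immune cells, 8.23 CPM and 6.58 CPM, which rest on few UMIs. Immune cells of all stages held 6 *Cldn3* UMIs, 4 of them in 1 cell, and 18 *Cldn4* UMIs. Over all stages, the other labels outside epithelium were at 0.745 to 2.67 CPM for *Cldn3* and 1.49 to 2.14 CPM for *Cldn4*. For pup over E15, 0 of 6 members were at least 2-fold higher and 5 were lower, against 8.81% and 21.8% of 9874 genes. *Cldn6* had a log2 ratio of -6.57, *Cldn4* of -3.74, *Cldn3* of -3.10, *Cldn7* of -3.06 and *Cldn23* of -2.22, and *Cldn18* was at 0.18, over a median of -0.38 for all genes.

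**Figure D2:**
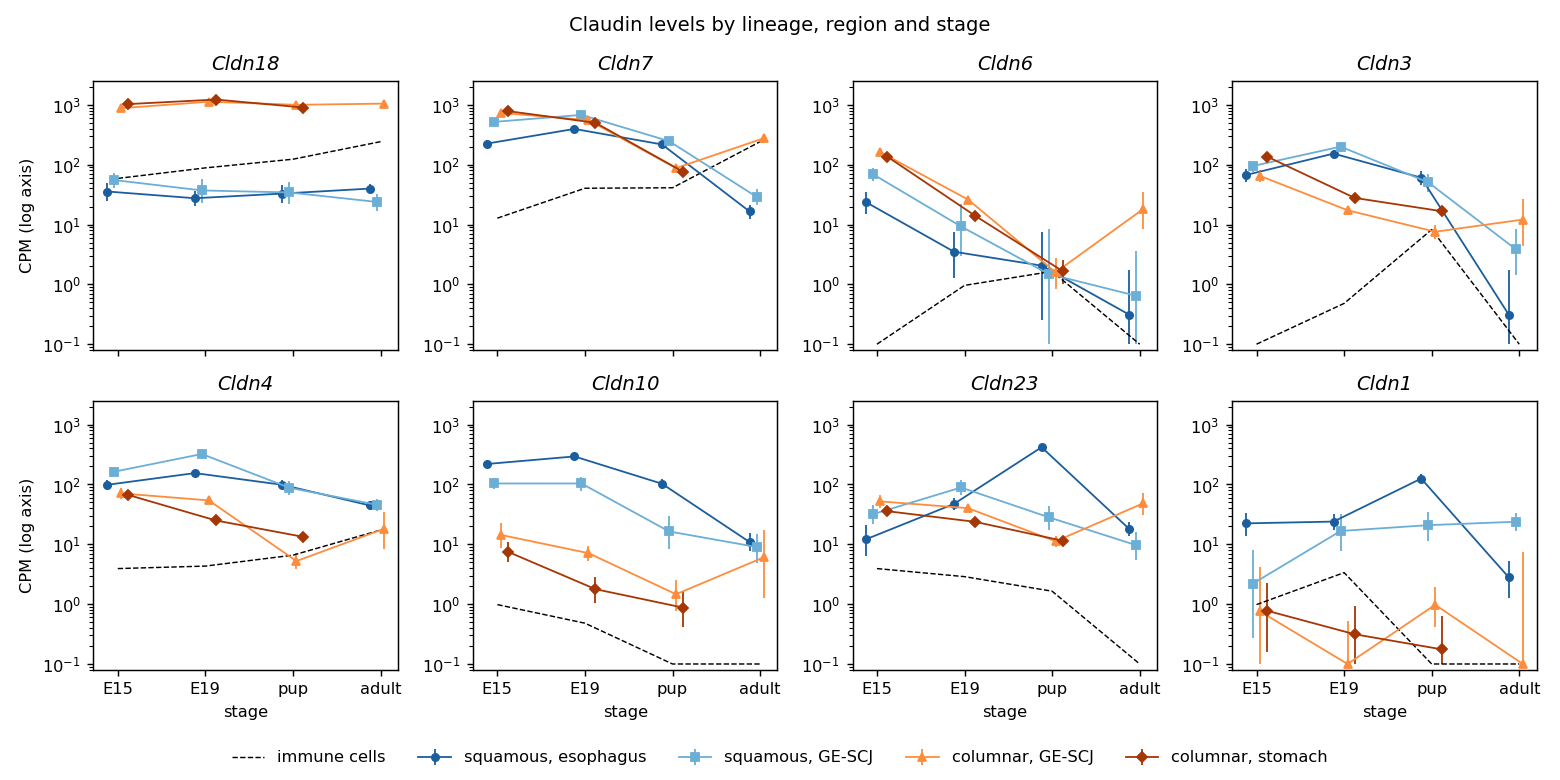
CPM (log axis) of 8 claudins at E15, E19, pup and adult (x axis) in squamous cells of the esophagus and GE-SCJ and columnar cells of the GE-SCJ and stomach, with exact 95% Poisson intervals; the dashed line is the level in immune cells of the stage, and levels under 0.1 CPM are drawn at 0.1. *Cldn18* lies between 881 and 1226 CPM in columnar cells, with squamous cells under the immune line, and *Cldn6* is lower in the pup than at E15 in all 4 series.

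*Cldn6* and *Cldn18* were often found in the same columnar cell at E15 and seldom in the pup. Counted at 5000 UMIs per cell, both were found in 65 of 139 stomach columnar cells of E15 (46.8%, 38.3 to 55.4), 26 of 345 of E19 and 1 of 341 of the pup. At the GE-SCJ they were found together in 24 of 52 cells, 36 of 266 and 2 of 284. *Cldn18* without *Cldn6* was found in 64 of the 139, 311 of the 345 and 315 of the 341 stomach cells. *Cldn7* and *Cldn18* were found together in 122 of 139, 292 of 345 and 75 of 341 stomach cells. In GE-SCJ squamous cells at E15, *Cldn6* was found with *Cldn7* in 10 of 45 cells and with *Cldn18* in 2 of 45. *Cldn7* without *Cldn6* was found in 22 of the 45 and *Cldn18* without *Cldn6* in 3. Joint counts depend on how often each gene was found, and no excess over that was tested. Any doublets and free RNA are counted in these numbers, and their part was not tested.

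In squamous cells of the esophagus, the claudins of the embryo were low in the adult, and a pup-stage peak of *Cldn23* and *Cldn1* lay in between. *Cldn7* had 225 CPM in 64 E15 cells, 396 CPM in 123 E19 cells, 218 CPM in 85 pup cells and 16.5 CPM (12.4 to 21.6) in 232 adult cells. *Cldn10* was at 219.9 CPM, 294 CPM, 103 CPM and 10.9 CPM (7.60 to 15.2). *Cldn3* was at 67.2 CPM, 153 CPM, 60.7 CPM and 0.312 CPM, the last from 1 UMI in 232 cells. All 3 were highest at E19 and lowest in the adult, with E19 and adult intervals far apart. The adult *Cldn7* level was below that of immune cells over all stages (36.1 CPM). There were 2.42 *Cldn18* UMIs for each *Cldn7* UMI, against 2.45 in immune cells over all stages. In adult immune cells both genes were at 242 CPM, and in adult GE-SCJ squamous cells the ratio was 0.822. The source of these UMIs was not tested. Immune cells were the highest label outside epithelium for *Cldn7*. The others had 5.96 to 18.0 CPM over all stages, a range that holds the adult squamous level. In the adult squamous cells of the esophagus, 19 of the 53 *Cldn7* UMIs and 29 of the 128 *Cldn18* UMIs lay in 1 cell each.

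*Cldn4* was at 98.7 CPM, 155 CPM, 98.7 CPM and 44.6 CPM (37.6 to 52.5). Its adult level was the lowest of the 4, without overlap of intervals, and it was found in 35 of the 232 adult cells. *Cldn6* was at 23.4 CPM (14.8 to 35.1) at E15 and 3.51 CPM, 2.06 CPM and 0.312 CPM afterwards. *Cldn18* was at 35.6 CPM, 27.5 CPM, 32.9 CPM and 39.9 CPM, under the immune level of each stage. For adult over E15, 0 of 6 members were at least 2-fold higher and 4 were lower, against 10.3% and 21.9% of 7881 genes. The log2 ratio was -6.77 for *Cldn3*, -4.30 for *Cldn10*, -3.75 for *Cldn7* and -1.15 for *Cldn4*, with a median of -0.44 over all genes.

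The pup peak of *Cldn23* lay in the second squamous label, and that of *Cldn1* was seen in both. *Cldn23* was at 12.2 CPM, 47.4 CPM, 419.5 CPM (380 to 462) and 18.1 CPM over the 4 stages of the esophagus, and *Cldn1* at 22.4 CPM, 24.0 CPM, 125 CPM (104 to 149.8) and 2.80 CPM. In the pup, the 29 cells of Squamous Epithelial-2 had *Cldn23* at 1008 CPM (912 to 1111), with a UMI in 29 of 29 cells. The 56 cells of the first label had 5.26 CPM (1.08 to 15.4), from 3 UMIs in 1 cell. *Cldn1* was at 209 CPM in the second label and 66.6 CPM in the first, and *Cldn7* at 460.5 CPM and 47.3 CPM. *Cldn10* went the other way, at 2.49 CPM (0.0630 to 13.9) in the second label and 173 CPM (141 to 211) in the first. *Cldn3* was at 114.5 CPM in the second label, and its 22.8 CPM in the first came from 1 of 56 cells. *Cldn4* was at 122 CPM and 82.3 CPM, and these intervals overlap. The labels were made from the same counts, so these differences describe the labels.

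**Figure D3:**
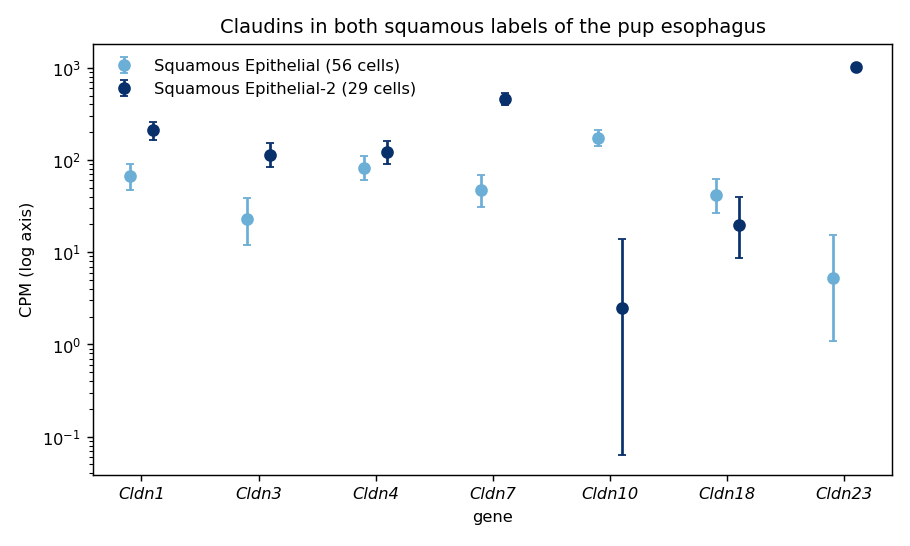
CPM (log axis) of 7 claudins (x axis) in the 56 and 29 pup esophageal cells of both squamous labels, with exact 95% Poisson intervals. *Cldn23* lies at 1008 CPM in Squamous Epithelial-2 and 5.26 CPM in the first label, *Cldn10* at 2.49 CPM and 173 CPM, and the intervals of *Cldn4* and *Cldn18* overlap.

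GE-SCJ squamous cells also had their lowest *Cldn7*, *Cldn4* and *Cldn3* in the adult, and had no pup peak of *Cldn23*. *Cldn7* had 519 CPM in 47 E15 cells, 679 CPM in 34 E19 cells, 248 CPM in 46 pup cells and 29.0 CPM (21.1 to 38.8) in 87 adult cells. *Cldn4* was at 164 CPM, 323 CPM, 88.1 CPM and 45.7 CPM (35.7 to 57.7), and *Cldn3* at 95.1 CPM, 200.4 CPM, 50.8 CPM and 3.87 CPM. As in the esophagus, each was highest at E19. Without the 3 adult cells whose neighbours were mostly prenatal, the adult levels were 7.43 CPM for *Cldn7*, 39.9 CPM for *Cldn4* and 0 UMIs for *Cldn3*, with an upper bound of 2.49 CPM. These 3 cells were picked from the same counts, so their removal is not independent of the levels.

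*Cldn10* was at 104 CPM, 104 CPM, 16.4 CPM and 9.02 CPM in these cells, and *Cldn6* at 68.6 CPM (52.6 to 87.9), 9.28 CPM, 1.49 CPM and 0.644 CPM. *Cldn23* was at 32.1 CPM, 89.1 CPM, 28.4 CPM and 9.66 CPM. *Cldn1* had its lowest level at E15, at 2.21 CPM (0.268 to 7.99), then 16.7 CPM, 20.9 CPM and 23.8 CPM (16.8 to 32.9). Its intervals from E19 on overlap. For adult over E15, 0 members were at least 2-fold higher and 6 of the 6 with the minimum were lower, against 10.2% and 21.2% of 5754 genes, with log2 ratios from -5.76 for *Cldn6* to -1.20 for *Cldn18*. The 6 include *Cldn18*, whose level in squamous cells is not read as expression and had 26 of the 50 UMIs at E15 in 1 cell. *Cldn1* and *Cldn23* were under the minimum. For pup over E15, 0 of 6 were higher and 3 were lower, against 4.31% and 13.2% of 4312 genes, with *Cldn6* at -4.54, *Cldn10* at -2.55 and *Cldn7* at -1.06. Without the cells with neighbours from the other side of birth, 10 of the 46 in the pup, 6 members were at least 2-fold lower. The share of all genes under this setting is not given here, so that count has no reference.

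Between the lineages of the GE-SCJ, *Cldn4* was higher in squamous and *Cldn18* in columnar cells at each stage. The log2 ratio of squamous over columnar cells for *Cldn4* was 1.20, 2.58, 4.06 and 1.20 (0.24 to 2.32) from E15 to the adult. *Cldn3* had 0.55, 3.54 and 2.76 up to the pup, and *Cldn10* had 2.80 and 3.87 at E15 and E19. *Cldn7* had -0.50, 0.29, 1.51 and -3.23 (-3.75 to -2.74) in the same order. The adult levels behind the last ratio, 29.0 CPM in squamous and 276 CPM in columnar cells, stand beside 242 CPM in adult immune cells (14 UMIs over 6 cells). Over all stages, the other labels outside epithelium had 5.96 to 18.0 CPM of *Cldn7*. The adult immune cells are a weak reference. The 5 from the esophagus held the columnar marker list at 5589 CPM, against 1319 CPM in adult esophageal squamous cells. The 1 from the GE-SCJ held it at 2650 CPM, against 1017 CPM in adult GE-SCJ squamous cells. Whether the adult direction of *Cldn7* reflects expression was not tested, nor was the source of the UMIs. With the immune level of the stage subtracted, *Cldn7* and *Cldn4* were under the UMI minimum in the adult and 1 member, *Cldn18*, was past 2-fold. *Cldn18* was lower in squamous cells throughout, from -3.97 at E15 to -5.42 in the adult, where the squamous level (23.8 CPM) is not read as expression. *Cldn6* was lower in squamous cells at E15 (-1.22) and E19 (-1.24).

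At E15, 2 of 7 members were at least 2-fold higher in squamous cells, *Cldn10* and *Cldn4*, against 4.42% of 6115 genes, and 2 were lower, against 6.95%. At E19, 4 were higher and 2 lower, against 8.85% and 12% of 9509 genes. In the pup, 4 of 5 were higher and 1 lower, against 10.4% and 16.2% of 9582 genes. The pup call of *Cldn23* (1.40) was lost with the first squamous label alone, where its log2 ratio was -0.088. In the adult 1 of 3 was higher and 2 were lower, against 13.4% and 18.1% of 4922 genes. The adult columnar group is the 19 cells described above.

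**Figure D4:**
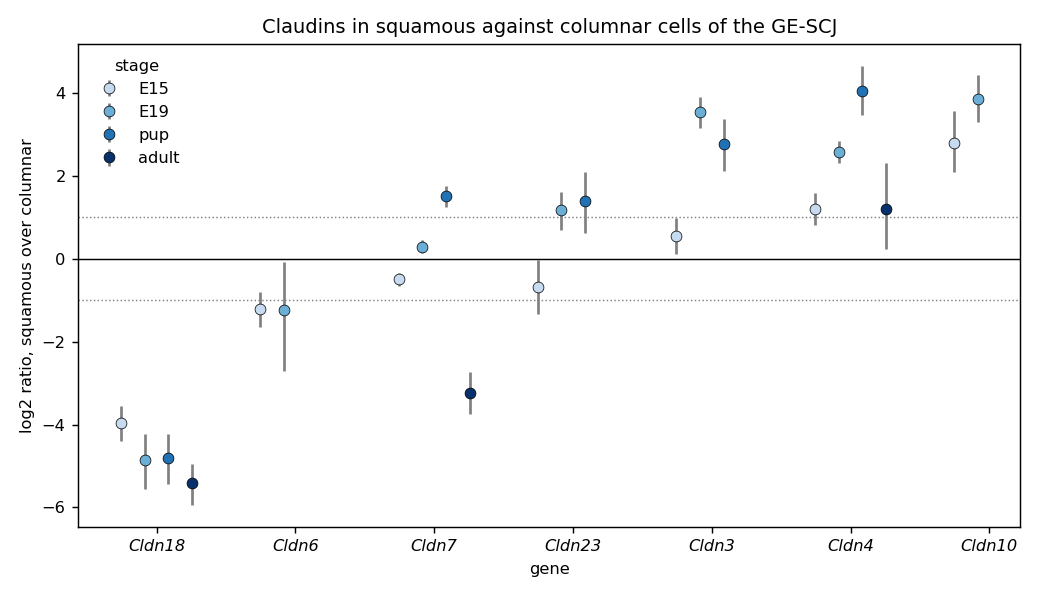
Log2 ratio of squamous over columnar cells of the GE-SCJ (y axis) for 7 claudins (x axis) at each stage, with 95% intervals and dotted lines at a 2-fold difference. Members under 50 UMIs over both groups are not drawn. *Cldn4* lies above 1 at all 4 stages, and *Cldn7* moves from -0.50 at E15 to 1.51 in the pup and -3.23 in the adult, where immune cells had 242 CPM.

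The mix of claudin UMIs changed in a different way in each lineage. These shares are not scaled by transcript length and are compared between stages for 1 gene. In stomach columnar cells, *Cldn18* made up 46.8%, 67.3% and 88.2% of the members' UMIs from E15 to the pup, and *Cldn7* 35.7%, 27.5% and 7.46%. The level of *Cldn18* was no higher in the pup than at E15 (902 CPM against 1029.7 CPM). In GE-SCJ columnar cells *Cldn18* made up 44.5%, 61.7%, 89.6% and, in the adult, 73.4%. In GE-SCJ squamous cells *Cldn7* made up 49.9%, 46.6% and 50.8% up to the pup and 19.8% in the adult. *Cldn4* made up 31.3% in the adult, although its level was lower than at E15 (45.7 CPM against 164 CPM). *Cldn1* made up 16.3% in the adult, from 37 UMIs, and 0.213% at E15, from 2 UMIs. In the esophagus, *Cldn10* made up 31.0% at E15 and 8.16% in the adult, and *Cldn23* 39.6% in the pup. The adult esophageal mix also holds 29.8% of *Cldn18*, which is not read as expression there.

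**Figure D5:**
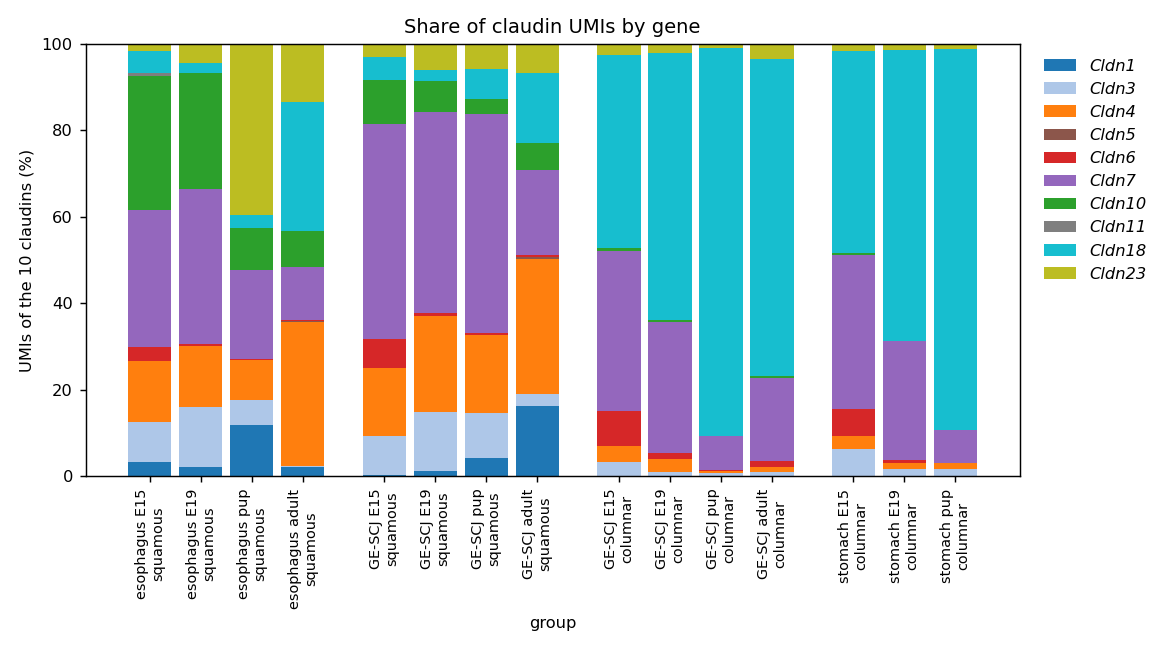
Percent of the 10 claudins' UMIs that each gene holds (y axis, not scaled by transcript length), by region, lineage and stage (x axis). The share of *Cldn18* in stomach columnar cells is 46.8% at E15 and 88.2% in the pup, while its level was 1029.7 and 902 CPM. In esophageal squamous cells *Cldn23* takes 39.6% in the pup and 13.5% in the adult.

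Between regions within a lineage, 0 to 3 members were past 2-fold. At E15, 0 of 6 members were higher and 1 was lower in GE-SCJ than in stomach columnar cells (*Cldn3*, log2 ratio -1.06), against 1.36% and 1.18% of 8753 genes. At E19, 2 of 7 were higher, *Cldn10* (1.94) and *Cldn4* (1.11), and 0 lower, against 0.813% and 1.44% of 10945 genes. In the pup 0 of 5 were higher and 2 lower, *Cldn4* (-1.32) and *Cldn3* (-1.12), against 1.38% and 0.89% of 11011 genes. After the top 1% of cells for each gene were taken out, 1 member was past 2-fold at E19 and 1 in the pup, without a share of all genes for this setting.

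Between GE-SCJ and esophageal squamous cells, *Cldn6* (1.51) and *Cldn7* (1.20) were higher at the GE-SCJ at E15, against 1.84% of 5499 genes, and *Cldn10* was lower (-1.07), against 3.55%. At E19, *Cldn4* (1.06) was higher, against 4.63% of 5617 genes, and *Cldn10* (-1.48) lower, against 5.11%. The *Cldn4* ratio was under 2-fold when the top 1% of cells were taken out, with classes from marker genes, with the mean of each cell's CPM, and with mitochondrial, ribosomal and hemoglobin genes kept out of the total. In the pup, 0 of 7 were higher and 3 lower, *Cldn23* (-3.82), *Cldn10* (-2.54) and *Cldn1* (-2.50), against 11.7% and 12% of 3875 genes. In the adult 0 of 4 members were higher and 0 lower, against 1.38% and 4.06% of 7682 genes. *Cldn1* was under the minimum in the adult, with 37 UMIs at the GE-SCJ (23.8 CPM) and 9 in the esophagus (2.80 CPM). Its adult log2 ratio of 2.97 (1.94 to 4.14) had the opposite direction to that of the pup. Of the pup cells, 29 of 85 carried the second squamous label in the esophagus and 2 of 46 at the GE-SCJ. With the first label alone, the ratio of *Cldn23* was 0.61, so its direction rests on the second label.

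*Cldn5* stayed endothelial at all 4 stages. Its level was 398 CPM (355 to 445) in 46 E15 cells, 270.1 CPM (236 to 308) in 69 E19 cells, 877 CPM (715 to 1064) in 21 pup cells and 501 CPM (340 to 711) in 21 adult cells. At E15, 44 of 46 endothelial cells had a UMI, and in the adult 8 of 21, at median depths of 15974.5 and 2522 UMIs. The pup level was the highest and its interval stood just above that of the adult, but 21 of its 102 UMIs lay in 1 cell. Summed lymphatic markers (*Prox1*, *Lyve1* and *Pdpn*) in the endothelial cells of a region were also highest in the pup, at 2458 to 7377 CPM. They were at 123 to 202 CPM at E15, 0 to 112 CPM at E19, and 104 and 2182 CPM in the adult. Of the 576 UMIs of this list in endothelial cells, 430 were of *Lyve1*, 128 of *Prox1* and 18 of *Pdpn*. *Pdpn* was at 10.1 CPM in endothelial cells, against 40.3 CPM in stromal cells. The part of the listed genes in the *Cldn5* levels was not tested.

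Outside epithelium and endothelium, *Cldn11*, *Cldn1* and *Cldn10* had signal that varied by region and stage. *Cldn11* was at 53.3 CPM (46.2 to 61.1) in E15 stromal cells of the esophagus, with 88 of 347 cells positive, 4.24 CPM at the GE-SCJ and 9.69 CPM in the stomach. At E19 these were at 3.15 CPM, 0.699 CPM and 1.81 CPM, and 0 of the 311 pup stromal cells had a UMI, where 3 cells would be a share of 0.965%. Stromal *Cldn1* was also highest in the esophagus, with 36.5 CPM, 20.6 CPM and 58.9 CPM from E15 to the pup, against 8.12 CPM, 6.65 CPM and 17.9 CPM in stomach stroma. The esophageal and stomach intervals do not overlap at these stages. Stromal *Cldn10* was at 1.49 CPM, 2.95 CPM and 30.7 CPM (22.4 to 41.0) from E15 to the pup, where 34 of 311 cells were positive. In Stromal-2 it was at 9.55 CPM (1.97 to 27.9), 78.7 CPM and 106 CPM (75.8 to 144) in the same order.

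The other tight junction genes are counted beside the share of all genes. For pup over E15 in stomach columnar cells, 0 of the 21 with the minimum were at least 2-fold higher and 3 lower, against 9.32% and 20.9% of all genes, with a median of -0.51. The lower ones were *Marveld2* (tricellulin, -1.06), *Cgn* (cingulin, a cytoplasmic plaque protein, -1.04) and *Cxadr* (an adhesion molecule and virus receptor, -1.01). At the GE-SCJ, 1 of 20 was higher and 2 were lower, against 8.81% and 21.8%. The higher one was *Cldn2*, a cation pore, at 6.83 CPM in pup columnar cells, from 1 UMI at E15, and at 1.14 CPM in pup stomach. For adult over E15 in esophageal squamous cells, 1 of 16 was higher and 6 lower, against 10.3% and 21.9%. The higher one was *Cldn17*, an anion pore, with 134 UMIs (41.8 CPM) in the adult and none at E15, and *Patj* (-2.35), a polarity scaffold, had the lowest ratio. At the GE-SCJ, 0 of 13 were higher and 5 lower, against 10.2% and 21.2%, with *Magi3* (-2.13) and *Ocln* (occludin, -1.67) the lowest.

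Between lineages of the GE-SCJ, *Cxadr* was lower in squamous cells at each stage, with log2 ratios of -2.39, -2.17, -1.94 and -2.73. *Pard3*, a polarity protein, was higher in squamous cells of the pup (1.84) and adult (2.24). Of the list, 0 of 16 were higher and 3 lower in squamous cells at E15, against 4.42% and 6.95% of all genes. At E19, 2 and 1 of 19 were higher and lower, against 8.85% and 12%. In the pup these were 1 and 5 of 20, against 10.4% and 16.2%, and in the adult 1 and 5 of 11, against 13.4% and 18.1%. Of the other claudins, *Cldn15* was at 107 CPM (90.4 to 126) in Stromal-2 and *Cldn8* at 11.2 CPM in squamous cells of the first label. *Esam*, an endothelial adhesion molecule outside the claudin family, was at 412 CPM in endothelial cells.

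Likeness of pattern was measured by Pearson's r of log2(CPM + 10) over 55 groups of label, region and stage with at least 20 cells, among 13555 genes. The groups share 1 library and are not independent, so r is a description. *Cldn7* was most like *Epcam* (0.928), *Foxa1* and *Itgb6*, *Cldn18* most like *Cym* (0.930), *Gata5* and *Akr1c12*, and *Cldn5* most like *Nkx2-3* (0.994), *Tie1* and *Gimap4*. *Cldn3* was most like *Cldn7* (0.887), *Muc4* and *Adam28*, *Cldn4* like *Adam28* (0.910), *Cdcp1* and *Klf5*, and *Cldn23* like *Rassf7* (0.898), *Prss8* and *Sowahb*. *Cldn6* was most like *Dact2* (0.847), *Palm3* and *Afm*, and *Cldn1* like *Tmprss11g* (0.684), *Plat* and *Ripor3*.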

How the data were processed

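The authors counted UMIs with Cell Ranger multi (version 6.1.1 in the submitters' processing notes, mm10 reference), assigned cells to tags, filtered them on detected genes, UMI totals (upper limits on both as a screen for doublets) and the mitochondrial fraction, and deposited raw counts for 7808 cells and 19550 genes, with a class label and the percent of mitochondrial UMIs of each cell from Seurat. No doublet caller was run here. The 10 claudins and the lists were chosen with earlier results of these data known.

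Counts were summed per label, region and stage and given as CPM, with exact 95% Poisson intervals for sums and exact Clopper-Pearson intervals for shares. Ratios have 95% intervals that are conditional on both counts, with 1 UMI added to each. Depth was 2302227 to 20070615 UMIs per region and stage. Shares were also counted with each cell thinned to 5000 UMIs (seed 1). A call is a 2-fold ratio of a gene with 50 or more UMIs in the compared groups, without a test. All claudins are named, of the tight junction list at most the 4 largest calls per comparison (any gene singled out by label was chosen after its values were seen), and for each claudin the 3 genes of highest r (those of *Cldn10* and *Cldn11* are not reported here). Expression-space neighbours are the 15 nearest in 30 principal components of 2000 genes. These were taken from the same counts, so leaving out cells by their neighbours is not independent of the claudin levels. Ratios and intervals were tested on simulated Poisson counts, the model that the intervals assume. That test cannot show the effect of UMIs that lie in 1 cell or of differences between mice. *Cldn14*, *Cldn16*, *Cldn20* and *Cldn24* are not analysed here. Sums and intervals used scipy 1.17.1, pandas 2.3.3 and numpy 2.4.6, neighbours scanpy 1.11.5 and scikit-learn 1.9.0, and plots matplotlib 3.10.9, in Python 3.11.15.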

Additional observations from a re-analysis of the deposited data

Results flagged for a closer look

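For *Cldn4*, the difference between GE-SCJ and stomach columnar cells had opposite directions at E19 (log2 ratio 1.11) and in the pup (-1.32), and for *Cldn7*, squamous over columnar cells of the GE-SCJ had opposite directions in the pup (1.51) and the adult (-3.23). With 1 pooled sample per group, neither difference between stages was tested. The *Cldn4* pup ratio rests in part on 1 stomach cell with 43 of 152 UMIs, and the adult *Cldn7* ratio on 19 columnar cells, of which 8 had mostly prenatal neighbours. Adult immune cells held *Cldn7* at 242 CPM, against 276 CPM in adult columnar and 29.0 CPM in adult squamous cells of the GE-SCJ, and with the immune level subtracted *Cldn7* was under the UMI minimum in the adult. Over all stages, the other labels outside epithelium had 5.96 to 18.0 CPM of *Cldn7*.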

How the results depend on the processing

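Of the counts of claudins past 2-fold under the alternatives, 130 of 155 stayed within 1.5 times, and of single log2 ratios 699 of 816 moved by less than their counting interval, while 115 moved and 2 reversed. Shares of cells moved in 510 of 720 cases when cells were thinned or 2 UMIs were required. With the first squamous label alone, the log2 ratio of *Cldn23* in the pup became -0.088 for squamous over columnar and 0.61 for GE-SCJ over esophagus. Without a UMI minimum, the counts were 9 (pup) and 8 (adult) for squamous over columnar, 7 for adult over E15 in the esophagus, 8 each for pup over E15 in columnar cells of stomach and GE-SCJ, 2 (E15) and 4 (E19) for GE-SCJ over stomach, and 6 (E15), 5 (E19) and 5 (adult) for GE-SCJ over esophagus. These counts include claudins with 0 UMIs in both groups, past 2-fold only through the UMI added to groups of unequal depth. For squamous over columnar, examples are *Cldn5* and *Cldn11* in the pup (log2 ratio 3.61 each) and *Cldn11* in the adult (-1.65). No share of all genes is given beside the counts under these or the other alternatives. With at least 20 UMIs, they were 5 for squamous over columnar in the adult, and 5 (E15) and 1 (adult) for GE-SCJ over esophagus. With the immune level subtracted, squamous over columnar in the adult gave 1. Without cells among neighbours from the other side of birth, pup over E15 in GE-SCJ squamous cells gave 6, GE-SCJ over stomach in the pup 1 and GE-SCJ over esophagus in the adult 1. With the top 1% of cells for each gene taken out, GE-SCJ over stomach gave 1 at E19 and 1 in the pup, and GE-SCJ over esophagus 1 at E19. Classes from marker genes gave 1 for GE-SCJ over stomach in the pup and 1 for GE-SCJ over esophagus at E19. A library size without genes of mitochondria, ribosomal proteins and hemoglobins gave 1 for GE-SCJ over esophagus at E19, and the mean of each cell's CPM and the stricter cell filter each gave 1 for it in the adult. Apart from the settings that drop cells, labels or UMI minimums by construction, the cause was not tested. Of the lists of most similar genes under 2 alternatives, 14 of 20 kept fewer than 2 of 3 genes. No paired analysis was possible because mice were pooled within each tag. Small groups limit the adult columnar (19 cells) and E19 GE-SCJ squamous (34 cells) values, and the UMIs of *Cldn18* and *Cldn7* in immune cells, of untested source, limit low values of both.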
